A study of Rattus norvegicus with 6 samples.

Results

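The nuclear genes for subunits of the respiratory chain and ATP synthase were measured in the renal cortex of rats given tris(2-chloroethyl)phosphate (TCEP), a chlorinated organophosphate flame retardant. Members were chosen by name: symbols beginning with Ndufa, Ndufb, Ndufc, Ndufs, Ndufv, Uqcr, Cox4, Cox5, Cox6, Cox7, Cox8 or Atp5, together with the Sdh genes and Cycs. This gave 77 genes of the 15284 named on the array, after 7 assembly factors (6 Ndufaf genes and Cox7a2l) were dropped. They comprised 33 genes of complex I, 4 of complex II, 8 of complex III, cytochrome c, 16 of complex IV and 15 of complex V. The complex IV entry Cox6c-ps1 is annotated as a transcribed pseudogene. In all, 76 members passed the filter on dim probes and were tested among 11804 genes; the remaining one, Cox8c, a testis isoform, was not well above background on any array. Of 111 protein-coding RefSeq symbols that meet the rule, 76 had a named probe, so the list of members is partial. Cyc1, Cox7a1, Atp5mc3 and Ndufa4l2, for example, had no named probe. Like the 13 mitochondrially encoded subunits, such genes were not analysed here.

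The rats were male, of the Sprague-Dawley strain, and 5 weeks old when purchased. A vehicle group of 3 rats received corn oil and a group of 3 received TCEP at 400 mg/kg/day, each over 4 weeks, and each rat gave 1 single-colour Agilent array of cortex RNA. The comparison asks whether transcripts of each complex differed between the treated and the vehicle cortex. In whole cortex, fewer cells of a type and less RNA per cell cannot be told apart.

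The respiratory chain sits in the inner mitochondrial membrane. Complexes I and II pass electrons from NADH and succinate to ubiquinone, complex III passes them to cytochrome c, and complex IV passes them to oxygen. Complexes I, III and IV pump protons while they do so, and complex V, the ATP synthase, lets the protons back in to make ATP. The proximal tubule, which makes up much of the renal cortex, is packed with mitochondria and depends on this pathway for reabsorption.

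All 12 markers listed for the proximal tubule were detected, which fits the labelled tissue. Between 67.2% and 69.3% of probes were well above background on each array, the 75th percentile of intensity lay between 966 and 1078, and no member was saturated. All vehicle arrays were on slide 1 and scan 1 and all TCEP arrays on slide 2 and scan 2, so that treatment and slide cannot be told apart. Levels below are log2 intensities relative to the array's 75th percentile, and a difference is the TCEP mean minus the vehicle mean on that scale, with its standard error (SE) and 95% confidence interval from limma.

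The promoters of these genes are known for shared sites of a few factors that connect nuclear and mitochondrial gene expression: NRF1, the ETS factor GABP and YY1. RefSeq promoter windows on GRCr8, from 250 bases before to 50 bases after each start site, were at hand for 67 of the 77 members and for 21851 protein-coding genes. The following stretches, all upstream of the start site and read along the gene's own strand, show such matches in cytochrome c and in a member of each complex. Capitals mark the match to the form named below for each gene. It reads as the reverse complement of the searched letters in Cox7a2 and, at both places, in Uqcrc1, and in Atp5me the capitals join 2 overlapping matches, 1 on each strand. They lie at chr4:80984881-80984960 (minus strand, Cycs), chr4:53971236-53971302 (minus, Ndufa5), chr5:158547790-158547868 (plus, Sdhb), chr8:118468123-118468203 (plus, Uqcrc1), chr8:89601150-89601228 (minus, Cox7a2) and chr14:1464748-1464827 (plus, Atp5me).
Cycs: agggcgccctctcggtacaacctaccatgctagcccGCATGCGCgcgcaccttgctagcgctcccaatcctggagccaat
Ndufa5: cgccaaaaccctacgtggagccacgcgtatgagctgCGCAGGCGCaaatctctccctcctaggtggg
Sdhb: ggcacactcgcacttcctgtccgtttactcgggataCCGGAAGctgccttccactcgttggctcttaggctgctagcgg
Uqcrc1: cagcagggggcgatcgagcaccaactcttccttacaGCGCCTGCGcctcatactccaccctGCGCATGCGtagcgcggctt
Cox7a2: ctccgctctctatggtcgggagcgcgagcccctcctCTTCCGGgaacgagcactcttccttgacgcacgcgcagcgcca
Atp5me: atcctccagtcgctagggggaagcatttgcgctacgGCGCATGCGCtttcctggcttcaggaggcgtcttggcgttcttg
Cycs and Atp5me carry the NRF1 core GCATGCGC, and Ndufa5 and Uqcrc1 the NRF1 form with 1 free base, CGCANGCGC. Sdhb and Cox7a2 carry the ETS core CCGGAAG. The Cox7a2 stretch also holds a match to CGCANGCGC, which is not capitalised. Both strands of the whole window were searched. The NRF1 forms overlap, so that 1 stretch can hold both, and the longer ETS form holds the shorter one.

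The core CCGGAAG stood in 20 of the 67 member promoters (29.9%), against 2346 of the 21851 in all. CGCANGCGC stood in 19 (28.4%, against 7.54% of all promoters) and GCATGCGC in 10 (14.9%, against 3.11%). The YY1 letters AAGATGGCG, which often surround the start site, stood in 8 (11.9%, against 2.07%). The longer ETS form CCGGAAGTG stood in 3 (4.48%, against 2.40%) and the CREB palindrome TGACGTCA in 4 (5.97%, against 2.10%). In all, 40 of 67 member promoters (59.7%) held CGCANGCGC, GCATGCGC, CCGGAAG or AAGATGGCG, against 18.9% of all promoters. A match describes letters in the window and not binding.

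Respiratory chain transcripts lay close to their vehicle levels. No member passed a Benjamini-Hochberg adjusted p of 0.05 in limma, and neither did any of the 11804 genes (percent called 0.0); the smallest adjusted p of a member was 0.535. At an unadjusted p under 0.05 there were 3 members of 76 (3.95%), Cycs, Cox8b and Cox6a2, against 983 of all genes (8.33%). Of these, 2 had the higher mean on TCEP, as did 4.21% of all genes, and Cox6a2 the lower mean, as did 4.12%. The 2 groups of arrays did not overlap in 8 members (10.5%), against 15.6% of all genes. In 6 of these the TCEP arrays lay above (Ndufa5, Ndufv1, Ndufc2, Ndufa2, Cox8b and Atp5mc2), where 8.64% of all genes did so, and in Cox6a2 and Atp5me they lay below, where 6.97% did. The TCEP mean was higher in 49 members and lower in 27, against 52.5% higher and 47.5% lower over all genes. The members' median difference was 0.03, but it was -0.01 when the background was corrected with normexp, and over all genes the median was 0.008. Under normexp 29 of the 76 members changed sign, none of them with a difference over 0.09 in size otherwise.

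The interval of the difference stayed within 1.2-fold in either direction for 57 of 76 members (75%), against 25.9% of all genes. It stayed within 1.5-fold for 75 members, all but Cox8b, and within 2-fold for all 76, against 76.5% and 91.8% of all genes. The median size of the difference, regardless of sign, was 0.05 for members and 0.10 for all genes, and the median SD within groups was 0.07 against 0.13. Members were also brighter, with a median level of 6.24 against 0.18 for all genes. Genes of the cytosolic ribosome, at a median level of 6.77, had a median size of 0.04 and a median SD of 0.055. The narrow spread was thus not particular to the members, and the part of brightness in it was not tested. Differences over 0.1 were seen in 16 members, where 48.4% of all genes had one, and differences over 0.2 in 4, Cox8b, Cycs, Cox6a2 and Ndufa5.

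**Figure D1:**
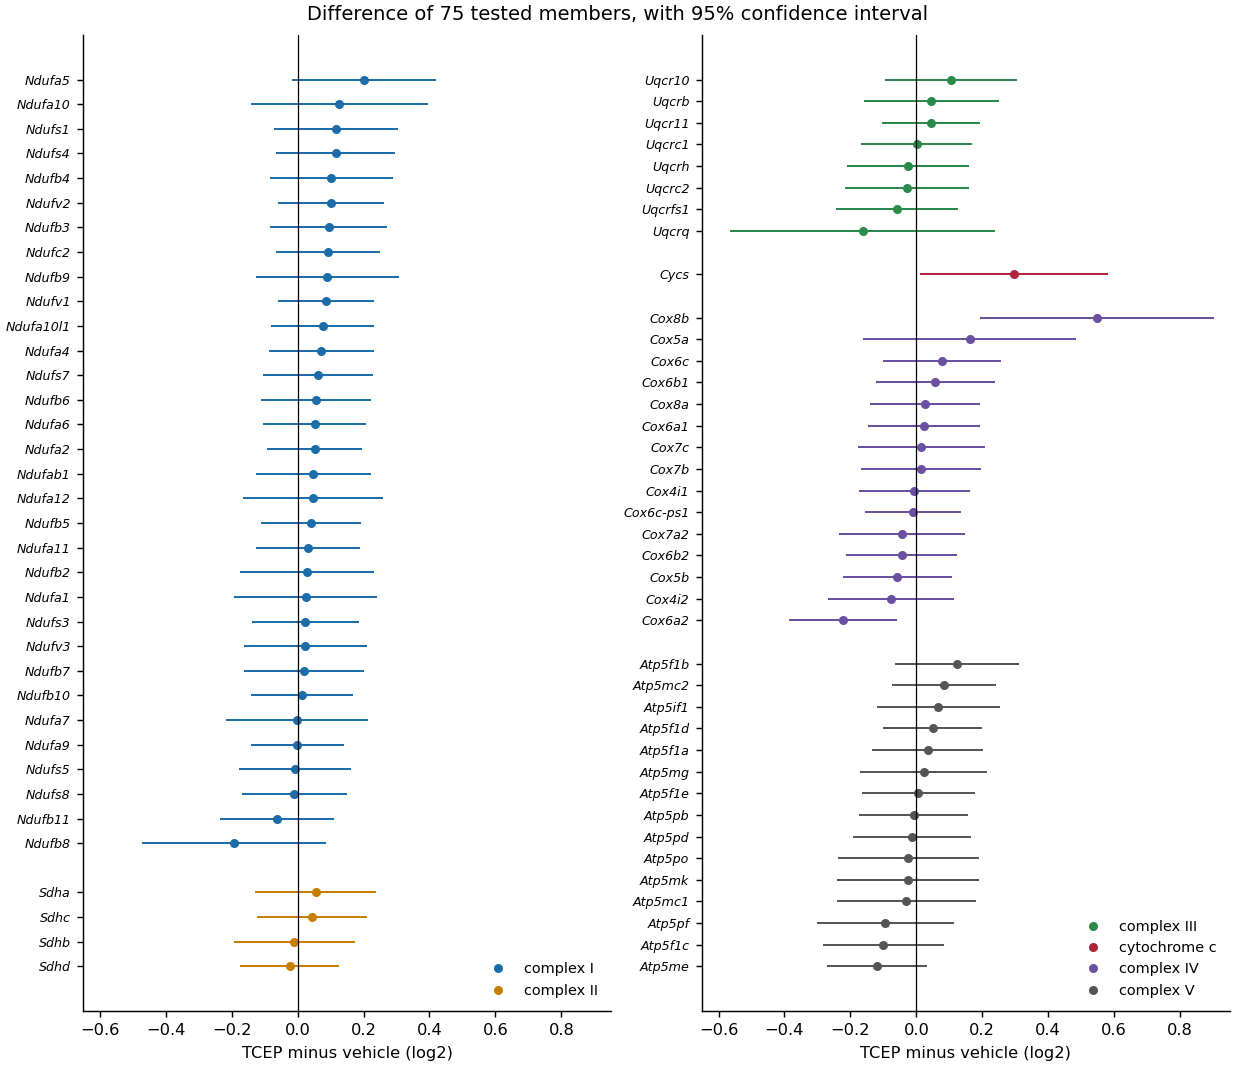
Difference of 75 of the 76 tested members between TCEP and vehicle (log2, horizontal axis), with points for estimates, bars for 95% confidence intervals and colours for complexes; 3 arrays per group. The interval lies off 0 only for Cycs, Cox8b and Cox6a2, none of which passed adjustment over all genes.

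**Figure D2:**
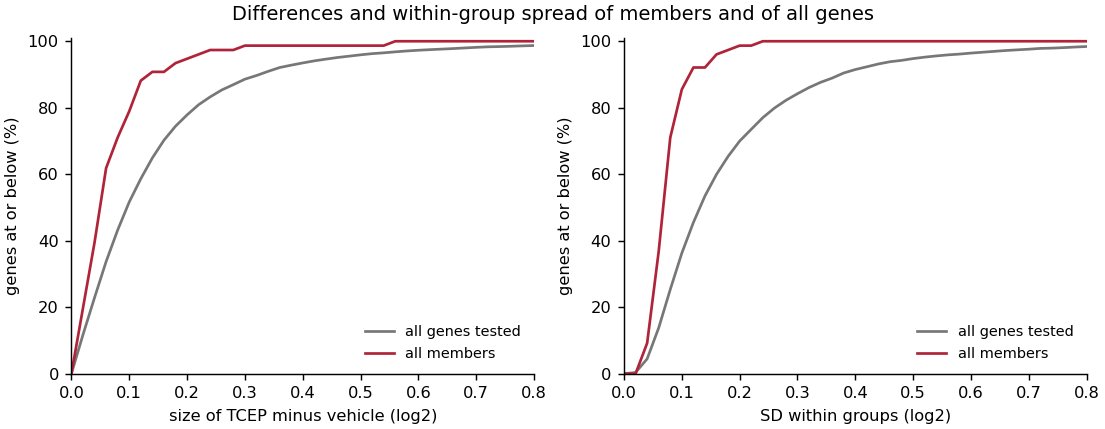
Share of genes (%) at or below each size of difference (left, log2) and each SD within groups (right, log2), for the 76 members and the 11804 tested genes. The member curve lies to the left in both panels, with medians of 0.05 against 0.10 and 0.07 against 0.13. Members were also brighter, at a median level of 6.24 against 0.18.

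Complex I, the NADH dehydrogenase, passes electrons from NADH to ubiquinone. Its mean was higher on TCEP for 27 of 33 members and lower for 6, with a median difference of 0.05. The median stayed above 0 in all 18 settings tried, between 0.02 with quantile normalization and 0.09 with no scaling, and the number higher ran from 19 with normexp to 31 with no scaling, spike-in centring or TCEP replicate 1 left out. The median was 0.07 without TCEP replicate 1 and 0.03 without TCEP replicate 3. On the brightest probe, none of the 33 reached an unadjusted p of 0.05 in limma, against 8.33% of all genes. The TCEP arrays lay wholly above the vehicle arrays in 4 (12.1%), against 8.64% of all genes.

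The 7 nuclear-encoded core subunits carry the flavin and the iron-sulfur clusters along which electrons pass. Their mean was higher in 6 and lower in Ndufs8, with a median difference of 0.06, but under normexp only 3 were higher and the median was -0.009. Ndufv1, which binds NADH and the flavin, read 6.25, 6.19 and 6.18 on the vehicle arrays and 6.32, 6.28 and 6.27 on the TCEP arrays. The groups did not overlap, though the distance between them was small. Its difference was 0.09 ± 0.06 (SE, n = 3 per group; limma adjusted p = 0.728), and -0.009 under normexp.

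Ndufs1, the largest core subunit, read 4.99, 4.89 and 4.99 on vehicle and 4.98, 5.08 and 5.16 on TCEP. TCEP replicate 1 lay among the vehicle arrays and the other 2 above them. Its difference was 0.12 ± 0.08 (SE; limma adjusted p = 0.719) and moved to 0.23 under normexp and 0.07 as the mean of its 2 probes. Ndufv2, a partner of Ndufv1, differed by 0.10 (interval -0.06 to 0.26). The core members Ndufs7, Ndufs3 and Ndufs8 differed by 0.06, 0.02 and -0.01.

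The 26 accessory subunits surround this core and are needed for its assembly and stability. Their mean was higher in 21 and lower in 5, with a median difference of 0.05 that lay between 0.02 and 0.09 over the settings, and the number higher ran from 16 to 24. Ndufa5, a subunit of the arm that faces the matrix, read 6.81, 6.85 and 6.86 on vehicle and 6.88, 7.10 and 7.14 on TCEP. All 3 TCEP arrays were above, with TCEP replicate 1 just above the highest vehicle array and the other 2 well clear of it. The TCEP level was 115% of vehicle, a difference of 0.20 ± 0.09 (SE; interval -0.01 to 0.42; limma adjusted p = 0.611), and it lay between 0.15 and 0.28 over the settings.

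Ndufs4, a small subunit whose loss causes mitochondrial disease in people and mice, read 4.35, 4.39 and 4.33 on vehicle and 4.38, 4.57 and 4.46 on TCEP. The groups overlapped by TCEP replicate 1 alone. Its difference was 0.12 ± 0.07 (SE; limma adjusted p = 0.712), 0.24 under normexp and 0.06 without TCEP replicate 2. Ndufab1, the mitochondrial acyl carrier protein, differed by 0.05 (interval -0.12 to 0.22), and both its other probes had the opposite sign. Ndufa4, now regarded as a subunit of complex IV and placed here by its name, differed by 0.07 (interval -0.09 to 0.23).

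Ndufb8, an accessory subunit of the membrane arm, had the lowest difference of the complex. It read 7.76, 7.83 and 7.496 on vehicle and 7.54, 7.38 and 7.59 on TCEP, so that 1 vehicle array lay among the TCEP arrays. The TCEP level was 87.5% of vehicle, a difference of -0.19 ± 0.11 (SE; interval -0.47 to 0.08; limma adjusted p = 0.695), and it was -0.29 without vehicle replicate 3 and -0.13 without vehicle replicate 2. Ndufb11, another membrane arm subunit, differed by -0.06 (interval -0.23 to 0.11) and by 0.10 under normexp. Ndufc2, a membrane arm subunit as well, had probes of opposite sign: its brightest probe differed by 0.09 with the TCEP arrays above, and its second probe by -0.29 ± 0.06 (SE) with the TCEP arrays below. In limma on single probes, the second probe had an unadjusted p of 0.003 and an adjusted p of 0.558. The second probe read 2.06, 2.05 and 1.99 on vehicle and 1.72, 1.78 and 1.75 on TCEP, and the mean of both probes differed by -0.10. Among all members, 39 had several tested probes, and in 18 of them a probe had the opposite sign to the brightest one.

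Complex II, the succinate dehydrogenase, is also an enzyme of the TCA cycle. Its 4 members, all encoded in the nucleus, differed by 0.055 or less on their brightest probes, 2 with a higher and 2 with a lower TCEP mean. Sdha, the flavoprotein that oxidises succinate, read 6.88, 6.93 and 6.98 on vehicle and 7.01, 7.06 and 6.88 on TCEP. Here TCEP replicate 3, not TCEP replicate 1, lay among the vehicle arrays. Sdha differed by 0.05 ± 0.07 (SE; interval -0.13 to 0.23; limma adjusted p = 0.864). Sdhb, the iron-sulfur subunit, read 5.60, 5.46 and 5.48 on vehicle and 5.42, 5.55 and 5.54 on TCEP, a difference of -0.01 (interval -0.19 to 0.17). The ranges overlapped in part, with vehicle replicate 1 the highest array and TCEP replicate 1 the lowest. The other Sdhb probe, with a vehicle mean of 5.42, differed by 0.14 ± 0.07 (SE), and the mean over probes by 0.07. The membrane anchors Sdhc and Sdhd, which bind ubiquinone, differed by 0.04 (interval -0.12 to 0.21) and -0.02 (interval -0.17 to 0.12). The median of the complex, 0.02, turned to -0.03 under normexp, -0.01 with quantile normalization and -0.01 without TCEP replicate 2.

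Complex III, the cytochrome bc1 complex, split into 4 members with a higher and 4 with a lower TCEP mean. Its median difference was -0.01 and ran from -0.08 under normexp to 0.03 with no scaling. Uqcrc1 and Uqcrc2, the core proteins of the matrix side, differed by 0.001 (interval -0.17 to 0.17) and -0.03 (interval -0.21 to 0.16). Uqcrfs1, the Rieske iron-sulfur protein, read 5.85, 5.97 and 5.93 on vehicle and 5.76, 5.94 and 5.87 on TCEP. TCEP replicate 1 lay below all vehicle arrays and the other 2 lay among them. Its difference was -0.06 ± 0.07 (SE; limma adjusted p = 0.854), and -0.20 under normexp.

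The small subunits held the ends of the range in this complex. Uqcr10 read 8.16, 8.05 and 8.11 on vehicle and 8.08, 8.29 and 8.26 on TCEP, again with TCEP replicate 1 among the vehicle arrays and the other 2 above them. Its difference was 0.10 ± 0.08 (SE; limma adjusted p = 0.758), 0.07 without TCEP replicate 2 and 0.17 without TCEP replicate 1. Uqcrq, whose brightest probe had the widest spread within groups of the tested members, read 0.07, -0.08 and -0.15 on vehicle and -0.21, 0.08 and -0.53 on TCEP. The groups overlapped widely, and the difference was -0.16 ± 0.16 (SE; interval -0.56 to 0.24; limma adjusted p = 0.804), -0.31 without TCEP replicate 2 and -0.008 without TCEP replicate 3. Uqcr11 and Uqcrb differed by 0.04 each, and Uqcrh, the hinge protein that docks cytochrome c, by -0.02.

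Cytochrome c, encoded by Cycs, ferries electrons from complex III to complex IV and, once released from mitochondria, starts the caspase cascade of apoptosis. It read 7.09, 7.26 and 7.15 on vehicle and 7.59, 7.56 and 7.24 on TCEP. TCEP replicates 1 and 2 lay above all vehicle arrays, and TCEP replicate 3 lay just below the highest of them. The TCEP level was 123% of vehicle, a difference of 0.30 ± 0.12 (SE; interval 0.01 to 0.58; unadjusted p = 0.043, limma adjusted p = 0.587). All 5 probes of the gene gave a higher TCEP mean, by 0.22 to 0.30, and on each of them TCEP replicate 1 was the highest and replicate 3 the lowest of the TCEP arrays. The difference was 0.41 without TCEP replicate 3 and 0.19 under normexp. RefSeq lists 7 pseudogene entries of Cycs, and what they add to the probes is not known here.

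Complex IV, the cytochrome c oxidase, had 8 tested members with a higher and 7 with a lower TCEP mean. Its median difference was 0.01, and it turned to -0.05 under normexp, -0.01 with quantile normalization and -0.03 without TCEP replicate 2. Cox4i1, a regulatory subunit, read 7.53, 7.41 and 7.49 on vehicle and 7.42, 7.45 and 7.54 on TCEP, a difference of -0.007 (interval -0.17 to 0.16). The 2 ranges were nearly the same. Cox6a1, Cox6b1, Cox7a2 and Cox8a differed by 0.02, 0.06, -0.04 and 0.03, and Cox5b, a zinc-binding subunit, by -0.06 (interval -0.22 to 0.10).

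Cox5a, a subunit on the matrix side, read 7.01, 6.57 and 6.61 on vehicle and 6.83, 6.97 and 6.88 on TCEP. The highest value of all was a vehicle array, and the other 2 vehicle arrays were the lowest. Its difference was 0.16 ± 0.13 (SE; interval -0.16 to 0.48; limma adjusted p = 0.766), 0.30 without vehicle replicate 1 and 0.08 without vehicle replicate 2.

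Several complex IV subunits have paralogs restricted to some tissues. Cox8b, the isoform of heart, skeletal muscle and brown fat, had the widest difference of any member. It read -1.62, -1.31 and -1.23 on vehicle and -0.63, -0.88 and -0.997 on TCEP, well above background on all arrays. Every TCEP array lay above every vehicle array. The TCEP level was 146% of vehicle, a difference of 0.55 ± 0.14 (SE; interval 0.20 to 0.90; unadjusted p = 0.009, limma adjusted p = 0.535). Its second probe gave 0.54, also without overlap, and the difference was 0.42 under normexp.

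Of the striated muscle markers, Myl11 alone lay apart between the groups beside Cox8b. Myl11, a light chain of fast skeletal myosin, read -2.79, -1.79 and -2.03 on vehicle and -1.06, -1.30 and -1.28 on TCEP, all above. Of 8 listed markers, 6 were tested, 4 with a higher and 2 with a lower TCEP mean, and their summed linear level was 0.858 to 0.924 on vehicle and 1.04 to 1.11 on TCEP. Without Myl11 the sum was 0.636 to 0.714 on vehicle and 0.631 to 0.676 on TCEP, with overlapping groups. Mb, myoglobin, differed by -0.07. Acta1, skeletal actin, differed by -0.24 and Ckm, muscle creatine kinase, by 0.26, both with overlapping groups, and Actn2 was not well above background on any array. The median of the list was 0.04, and -0.07 under normexp. Of the 3 brown fat markers, Ucp1 and Cidea were tested and both differed by 0.23 with overlapping groups, and their summed linear level was 0.525 to 0.728 on vehicle and 0.508 to 1.21 on TCEP. Cidea read 0.23 on TCEP replicate 1 and -0.81 and -1.06 on the other TCEP arrays, and the median of the pair was -0.03 without TCEP replicate 1 and 0.02 without vehicle replicate 3. The part of either tissue in the Cox8b difference was not tested.

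Cox6a2, the heart and skeletal muscle isoform of Cox6a1, had the opposite sign. Its brightest probe read -1.25, -1.33 and -1.37 on vehicle and -1.50, -1.60 and -1.52 on TCEP, with no overlap. The TCEP level was 85.7% of vehicle, a difference of -0.22 ± 0.07 (SE; interval -0.38 to -0.06; unadjusted p = 0.015, limma adjusted p = 0.537). Its other 2 probes were much dimmer, with vehicle means of -3.68 and -4.58. They differed by 0.15 ± 0.25 and 0.06 ± 0.14 (SE) with overlapping groups. The mean over the 3 probes differed by -0.005, and the brightest probe differed by -0.10 under normexp. Cox4i2, the lung isoform of Cox4i1, differed by -0.08 (interval -0.26 to 0.11), and Cox6b2, the testis isoform of Cox6b1, by -0.04 (interval -0.21 to 0.12).

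**Figure D3:**
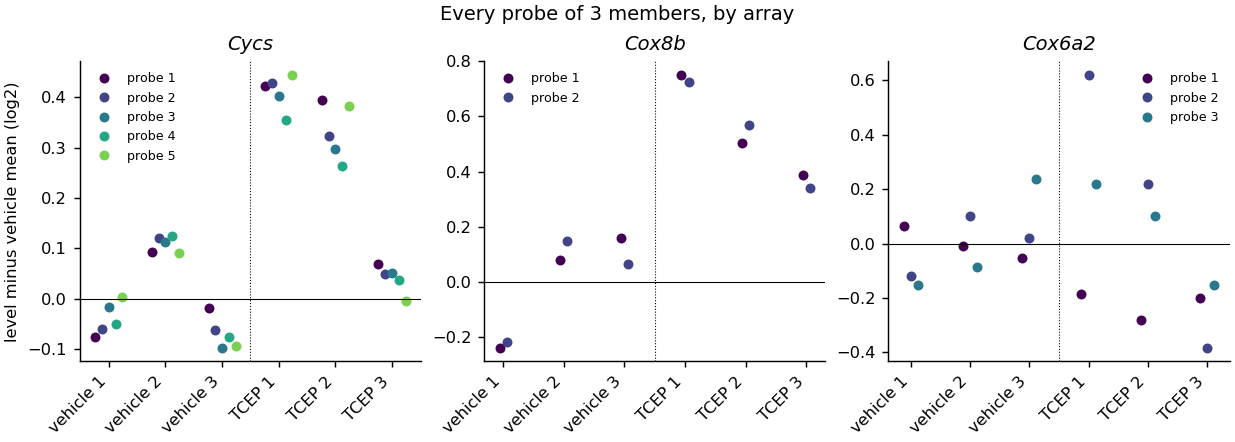
Level of every probe of Cycs, Cox8b and Cox6a2 on each array, minus that probe's vehicle mean (log2, vertical axis), for 3 vehicle and 3 TCEP arrays; each colour is 1 probe. The 5 Cycs probes and the 2 Cox8b probes move together, whereas Cox6a2 probes 2 and 3 do not follow probe 1. These 2 Cox6a2 probes are much dimmer, with vehicle means of -3.68 and -4.58 against -1.32 for probe 1.

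Complex V had 7 members with a higher and 8 with a lower TCEP mean. Its median difference was -0.008, and it ran from -0.04 without TCEP replicate 3 to 0.04 without TCEP replicate 1, with 0.03 with no scaling and -0.03 under normexp. Of the 5 Atp5f1 genes, which encode the catalytic head and its central stalk, 4 had a higher TCEP mean, though only 2 did so under normexp. Atp5f1b, the catalytic beta subunit, read 6.04, 5.97 and 6.01 on vehicle and 6.01, 6.22 and 6.15 on TCEP. TCEP replicate 1 was again among the vehicle arrays. Its difference was 0.12 ± 0.07 (SE; interval -0.06 to 0.31; limma adjusted p = 0.705), 0.08 without TCEP replicate 2 and 0.28 under normexp.

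Atp5f1c, the gamma subunit that turns inside the head, read 5.87, 5.92 and 5.89 on vehicle and 5.70, 5.77 and 5.90 on TCEP, with TCEP replicate 3 among the vehicle arrays. Its difference was -0.10 ± 0.07 (SE; limma adjusted p = 0.748), -0.16 without TCEP replicate 3 and -0.05 without TCEP replicate 1. Atp5f1a, the alpha subunit, differed by 0.03 (interval -0.13 to 0.20).

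Of the other 10 genes, for the peripheral stalk, the membrane part and the inhibitor, 3 had a higher and 7 a lower TCEP mean, but with no scaling, and without TCEP replicate 1, 8 of the 10 had a higher one. Atp5me, a small membrane subunit, read 8.30, 8.27 and 8.26 on vehicle and 8.09, 8.18 and 8.19 on TCEP. All TCEP arrays lay below all vehicle arrays. The TCEP level was 92.0% of vehicle, a difference of -0.12 ± 0.06 (SE; interval -0.27 to 0.03; limma adjusted p = 0.657), and -0.08 with no scaling. Atp5mc2, which encodes the proton-carrying ring subunit, read 7.19, 7.19 and 7.11 on vehicle and 7.19, 7.26 and 7.29 on TCEP, a difference of 0.08 ± 0.06 (SE; limma adjusted p = 0.750). Its TCEP arrays lay above all vehicle arrays, the lowest of them by a very small margin. Atp5mc1 encodes the same mature ring protein and differed by -0.03 (interval -0.24 to 0.18). Atp5if1, the inhibitor that stops the enzyme from running backwards, differed by 0.07 (interval -0.12 to 0.25) and by -0.10 under normexp. Atp5pf, a peripheral stalk subunit, differed by -0.09 (interval -0.30 to 0.11).

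In the main setting, TCEP replicate 1 differed from the other TCEP arrays across the chain. Each array's log2 75th percentile is subtracted there, and it was 10.07 on TCEP replicate 1, 9.93 on replicate 2 and 9.92 on replicate 3. The order of the arrays can depend on this step and was not examined under other scalings. Among the 3 TCEP arrays, replicate 1 was the lowest in 57 of 76 members, against 4927 of the 11804 genes. It was also the lowest of all 6 arrays in 30 (39.5%), against 22.9% of all genes. TCEP replicate 3 was the highest of all 6 in 32 members (42.1%), against 18.9% of all genes. In complex V, replicate 1 was the lowest TCEP array for all 15 members, and the mean of the complex, relative to each gene's 6-array mean, was -0.10, 0.04 and 0.06 on TCEP replicates 1, 2 and 3, with vehicle arrays between -0.02 and 0.02. In complex I the TCEP means were -0.03, 0.04 and 0.07, with vehicle arrays between -0.04 and 0.008. The mean of the 12 proximal tubule markers followed the same order, -0.14, 0.08 and 0.08 on TCEP and between -0.04 and 0.01 on vehicle; their summed linear level was 2094, 2572 and 2544 on TCEP and 2244 to 2423 on vehicle, with 6 markers higher and 6 lower on TCEP. TCEP replicate 1 was also the lowest TCEP array in the marker means of some other cell types. It stood at -0.32 for podocytes, -0.23 for smooth muscle and -0.24 for the distal convoluted and connecting tubule. For principal cells it stood at -0.20, for endothelium at -0.16 and for erythroid cells at -0.25. In other lists it was the highest TCEP array: thick ascending limb (0.13), intercalated cells (-0.14), macrophages (-0.03), white fat (0.03) and brown fat (0.64). For striated muscle (0.11) it lay between the other TCEP arrays. The part of these markers in the spread of the members was not tested.

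**Figure D4:**
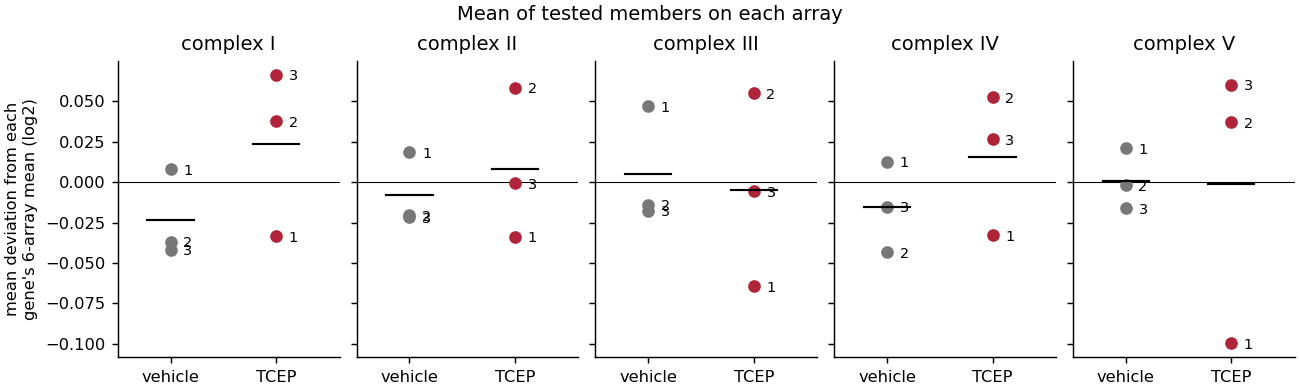
Mean over tested members of each complex on every array, relative to each gene's mean over the 6 arrays (log2, vertical axis), with replicate numbers beside the points and bars for group means. In the main setting, TCEP replicate 1 lies lowest of the TCEP arrays in all 5 complexes, and in complex V it stands at -0.10 against 0.04 and 0.06. The order of the arrays was not examined under other scalings, under which the median differences of complexes II to V change sign.

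**Figure D5:**
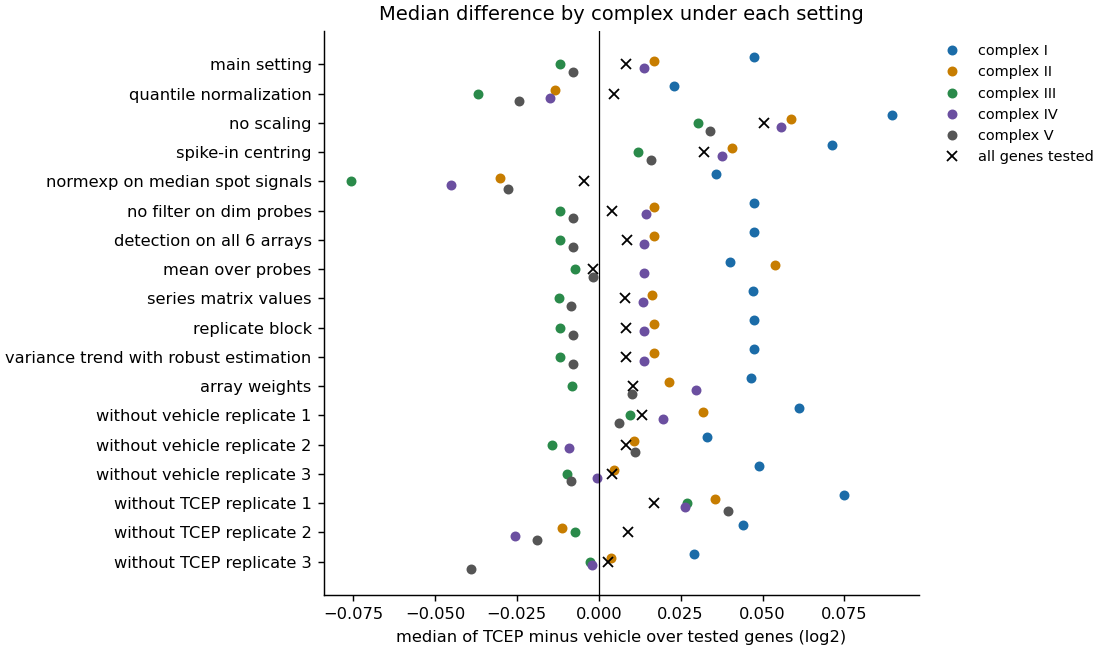
Median difference of TCEP minus vehicle (log2, horizontal axis) over the tested members of each complex and over all tested genes (crosses), for the main setting and 17 alternatives. Complex I stays above 0 throughout, between 0.02 and 0.09, whereas the medians of complexes II, III, IV and V lie on both sides of 0.

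Genes that build the complexes were a list of their own. Of 42 tested assembly factors, 32 had a higher and 10 a lower TCEP mean, with a median difference of 0.05 that stayed above 0 in all 18 settings, from 0.01 without vehicle replicate 3 to 0.09 with no scaling. None passed the adjusted p in limma, and 2 (4.76%) had an unadjusted p under 0.05, against 8.33% of all genes. Uqcc3, an assembly factor of complex III, differed by 0.23 ± 0.07 (SE; limma adjusted p = 0.554) with the TCEP arrays above. Coa3, which acts in the making of the first complex IV subunit, differed by -0.15 ± 0.06 (SE; limma adjusted p = 0.608) with the TCEP arrays below.

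Regulators of mitochondrial biogenesis showed no common sign. Of 15 tested, 7 had a higher and 8 a lower TCEP mean, with a median of -0.002 (-0.07 to 0.04 over the settings). None passed the adjusted p in limma, while 3 (20%) had an unadjusted p under 0.05, against 8.33% of all genes. Tfb1m, a methyltransferase of mitochondrial ribosomal RNA, differed by 0.27 ± 0.11 (SE; limma adjusted p = 0.592), and Yy1 by -0.24 ± 0.08 (SE; limma adjusted p = 0.559), both without overlap. Of the factors whose sites were searched above, Nrf1 differed by 0.01 and Gabpa by 0.17. Ppargc1a, the best known coactivator of mitochondrial biogenesis, was chosen with its values in view. It differed by -0.35 ± 0.14 (SE, limma adjusted p = 0.587) with the TCEP arrays below. Over the 15 tested regulators the differences ran from -0.35 to 0.52.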

How the data were processed

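Total cortex RNA (0.2 ug) was labelled with Cy3, per the labels' protocols. The deposited intensity is Agilent Feature Extraction's processed signal, linear and background-subtracted, per the file headers; the deposited flags, other values of 0 or 1 per spot, mark outliers, saturation and detection. The submitters' processing notes name Agilent Feature Extraction 10.7. The deposited series matrix held the same intensity divided by a constant per array near its 75th percentile (spread under 0.01%), uncentred, with column medians of 0.104 to 0.107. Control spots (1319 of 62976) and 12 outlier probes were left out. Of the rest, 27453 probes were named through unversioned accessions in RefSeq (GRCr8).

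The log2 signal minus the array's log2 75th percentile was used, with the brightest probe per gene, tested where each array of 1 group or of both had it well above background. The test was limma's (version 3.58.1, under R 4.3.3; lmFit, eBayes, two-sided, 5.93 degrees of freedom, Benjamini-Hochberg over all genes), checked on simulated data. The design text calls the samples biological replicates; their number limits the precision. Replicate numbers gave correlations of deviations of -0.15, -0.10 and 0.23, and were not used as pairs. Python 3.11.15, pandas 2.3.3, numpy 2.4.6 and matplotlib 3.10.9 were used for tables and figures. Members, lists and alternatives were chosen with earlier results of these data known. The values of 1 member are not reported here. Named genes were, per complex, the 2 members of smallest unadjusted p in each direction, core, regulatory and paralogous members chosen by role, and the gene of smallest p in each direction of the other lists; other members are given by value where they complete a complex. The 17 alternatives varied scaling, background correction, dim-probe filter, probe choice, values, block, variance model, array weights and the arrays left out.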

Additional observations from a re-analysis of the deposited data

How the results depend on the processing

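No member passed the adjusted p in any of the 17 alternatives. Over all genes the limma count was 0 to 1 when 1 array was left out, the 1 being Dio2, a deiodinase gene and no member, without TCEP replicate 3, and 0 otherwise. Counts at an unadjusted p under 0.05 were 384 with spike-in centring and 1572 with normexp, against 983, and 1 and 8 members against 3. With no scaling the medians were 0.089 (complex I), 0.059 (complex II), 0.056 (complex IV) and 0.067 (all members), the median of all genes was 0.05, and 63.9% of all genes were higher on TCEP, against 52.5%. With normexp they were -0.030 (complex II), -0.076 (complex III) and -0.045 (complex IV). As means over probes, complex II had 0.054. Leaving out 1 array gave medians of 0.03 to 0.07 (complex I), -0.01 to 0.04 (II), -0.01 to 0.03 (III), -0.026 to 0.026 (IV), -0.04 to 0.04 (V) and 0.003 to 0.06 (all members). The cause was not tested. Under normexp 29 members changed sign, none with a main difference over 0.09. The replicate block gave 0 calls, 850 genes at an unadjusted p under 0.05 and the same medians. The numbers shared no pairing in the labels. Dim members such as Cox6a2 and Cox8b, and probes that disagree, limit single-gene values. Signals of near-identical copies cannot be told apart: RefSeq lists 93 pseudogene entries for 39 members.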

Other observations

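Other mitochondrial gene lists were measured on the same arrays. Of 66 genes of the mitochondrial ribosome, which translates the mitochondrially encoded subunits, 54 had a higher and 12 a lower TCEP mean, with a median difference of 0.06 that lay between 0.02 without vehicle replicate 3 and 0.10 with no scaling. Limma called none of them, and none had an unadjusted p under 0.05, against 8.33% of all genes. Mrpl38 differed by 0.16 and Mrpl14 by -0.17. Of 76 genes of the cytosolic ribosome, 52 were higher and 24 lower, with a median of 0.03 and a range over settings of 0.004 to 0.07, none was called by limma and none had an unadjusted p under 0.05. Rpl10 differed by 0.14 and Rps24 by -0.22.

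The TCA cycle feeds NADH and succinate to the chain. Its 17 tested genes split into 8 higher and 9 lower, with a median of -0.001 (-0.03 to 0.04 over the settings). There was no call by limma, and 1 gene (5.88%) had an unadjusted p under 0.05, against 8.33% of all genes. Fh, which hydrates fumarate, differed by 0.19 ± 0.07 (SE) with the TCEP arrays above, and Suclg2, a subunit of succinyl-CoA ligase, by -0.14 ± 0.07 (SE). Of 14 tested transport genes of the mitochondrial membranes, 9 were higher and 5 lower, with a median of 0.04, and -0.02 without vehicle replicate 1. Limma called none of them, and 1 (7.14%) had an unadjusted p under 0.05, against the same share of all genes. The outer membrane channels Vdac1 and Vdac2 differed by 0.21 and -0.10. Markers of intercalated cells, acid-base cells of the collecting duct that are rich in mitochondria, had a lower TCEP mean in 5 of 6, with a median of -0.38 (-0.42 to -0.30 over the settings), and the TCEP arrays lay below in 5, as in 6.97% of all genes. None was called by limma, while 5 had an unadjusted p under 0.05, against 8.33% of all genes. Other marker lists were lower too: all 5 tested genes of the distal convoluted and connecting tubule (median -0.34), all 4 of principal cells (-0.23) and all 5 of podocytes (-0.23), though in other settings up to 1, 1 and 2 of them were higher.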
